A study of Mus musculus with 12 samples.

Results

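The genes described here are 10 components of the vascular endothelial growth factor (VEGF) system and its angiopoietin partner pathway: the ligands Vegfa, Vegfb, Vegfc and Pgf, the receptors Flt1, Kdr and Flt4, the co-receptors Nrp1 and Nrp2, and the angiopoietin receptor Tek. They were listed by name from the pathway and are 10 of the 32285 genes in the deposited tables. Each of the 10 had a single row, and all were detected. They were measured by droplet scRNA-seq of the superior mesenteric ganglia (SMG) of 12 mice of the inbred strain 129+Ter/SvJcl, a sympathetic ganglion where tumors arise in the transgenic mice. One mouse was wild type (WT) and aged 3 weeks, 10 were Th-MYCN+/- and of the same age (called young transgenic mice here), and 1 was Th-MYCN+/- and aged 6 weeks. Th-MYCN+/- mice are hemizygous for human MYCN under the rat tyrosine hydroxylase promoter, which is active in sympathetic neuroblasts and neurons, and the other cell types of the ganglion carry the transgene in their genome as well. The 6-week-old ganglion was chosen by the study because a macroscopic tumor was seen at dissection, so age and tumor cannot be told apart in it. The dissection was done so as to leave the neighbouring blood vessels behind.

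VEGF ligands are secreted dimers that act on receptor tyrosine kinases of endothelial cells, the cells that line blood vessels. KDR carries most of the mitogenic signal of VEGFA, FLT1 binds VEGFA, VEGFB and PGF and can act as a decoy, and FLT4 responds to VEGFC, above all in lymphatic endothelium. The neuropilins bind VEGFs next to these receptors, and they also serve as receptors for class 3 semaphorins in growing sympathetic axons, so their presence outside vessels is well known. TEK is the angiopoietin receptor that stabilizes mature vessels.

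Counts are unique molecular identifiers (UMIs), and levels are UMIs per 1000000 UMIs (CPM) of a cell class in a mouse. Total UMIs per library ranged from 1147772 to 6388766, and 12064 cells were kept, 618 in the WT, 522 to 1881 in the young transgenic and 945 in the 6-week-old mouse. Clusters made without the 10 genes and their pathway lists gave 530 endothelial-like cells. The other classes were Schwann-like (2889), ganglion-like (2757), neuroblast-like (2741), macrophage-like (243), fibroblast-like (141), myofibroblast-like (168) and NKT-like (43), and 3 clusters of 2310, 215 and 27 cells stayed unnamed. In the young transgenic mice the summed level of the 13 endothelial markers was 17848 to 23799 CPM in endothelial-like cells and at most 1559 CPM in neuroblast-like, ganglion-like and Schwann-like cells. Some libraries stood apart. The 36 cells placed among neuroblast-like cells in the WT mouse held 33083 CPM of Schwann markers and 2082 CPM of neuroblast markers, so no direction was read from them. Replicate 2 of the young transgenic mice had 26 neuroblast-like and 10 Schwann-like cells, no myofibroblast-like cell and 39.1% of its UMIs in cells. Erythroid markers reached 41746 CPM in the endothelial-like cells of 1 mouse. Between libraries, 93 barcodes were shared, in 187 cells. With 1 WT and 1 6-week-old mouse, comparisons with these groups had no test, and their intervals cover counting error only.

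Outside the endothelial-like cells, the VEGF receptors and Tek were close to absent, whereas ligands and co-receptors were spread over several classes. In the 10 young transgenic mice, endothelial-like cells made up 4.11% of cells and 2.48% of UMIs, yet they held 646 of 652 Flt1 UMIs (99.1%), 236 of 239 Kdr UMIs (98.7%) and 45 of 47 Tek UMIs (95.7%). They also held 16 of 22 Flt4 UMIs and 18 of 32 Vegfc UMIs. Ganglion-like cells, the mature sympathetic neurons, held most Nrp1 UMIs, 540 of 974 (55.4%). Neuroblast-like cells held most Nrp2 UMIs, 520 of 839 (62.0%). By mean level, 6 of the 10 genes were highest in endothelial-like cells among the 4 larger classes (endothelial-like, Schwann-like, neuroblast-like and ganglion-like).

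**Figure D1:**
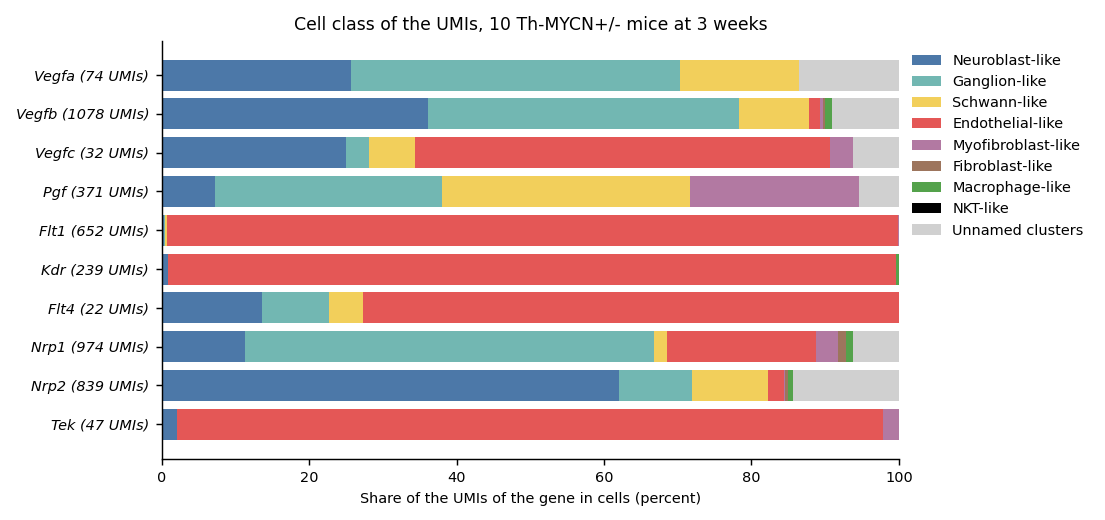
Share of each gene's UMIs (horizontal axis, percent) by cell class, summed over the 10 young transgenic mice; the number of UMIs stands beside each gene. Flt1 (99.1%), Kdr (98.7%) and Tek (95.7%) UMIs lay almost entirely in endothelial-like cells, and Nrp2 UMIs mostly in neuroblast-like cells (62.0%).

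Differences between the 4 larger classes were tested within the young transgenic mice with edgeR's quasi-likelihood test on UMIs summed by mouse and class, with the mouse as a block and Benjamini-Hochberg adjustment over all genes tested. The edgeR filter on low counts left few of the 10 genes. Without replicate 2, 5 of them could be tested between endothelial-like and neuroblast-like cells. Of these, 4 were higher in endothelial-like cells and 0 lower (58.9% of all genes tested were called, 23.1% higher and 35.8% lower). With all 10 mice, 1 of 1 gene tested between endothelial-like and neuroblast-like cells was called, Flt1, higher in endothelial-like cells. There 64.7% of all genes tested were called (31.1% higher, 33.6% lower). Against ganglion-like cells both genes tested were higher (70.9% of all genes called, 32.5% higher and 38.4% lower). Against Schwann-like cells 1 of 1, again Flt1, was higher (55% called, 29.8% higher and 25.2% lower). Flt1 had 646 UMIs in endothelial-like, 2 in neuroblast-like, 1 in ganglion-like and 2 in Schwann-like cells. Genes high in a single class pass the filter through that class, so their direction in these counts was fixed by the filter and gives no support. Between neuroblast-like and ganglion-like cells all 3 genes tested were called, 1 higher and 2 lower in neuroblast-like cells (68.2% called, 37.3% higher and 30.9% lower). Between neuroblast-like and Schwann-like cells 1 of 2 was called, and it was lower (68.3% called, 35.8% higher and 32.4% lower). Between ganglion-like and Schwann-like cells 0 of 1 was called by edgeR or DESeq2 (70% called, 38.4% higher and 31.6% lower), and 0 had an unadjusted p under 0.05. These classes differed in most genes tested, so a call by itself set none of the 10 genes apart.

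Without the filter, 10 genes could be tested in the first 5 comparisons and 8 in the last. In endothelial-like cells 6 were higher and 1 lower than in neuroblast-like cells (36.3% of all genes called, 13.6% higher and 22.7% lower). Against ganglion-like cells 6 were higher and 2 lower (34% called, 12.4% higher and 21.6% lower), and against Schwann-like cells 6 were higher and 1 lower (21.6% called, 8.36% higher and 13.2% lower). In neuroblast-like cells 1 was higher and 4 lower than in ganglion-like cells (41.6% called, 21.7% higher and 19.9% lower), and 0 higher and 2 lower than in Schwann-like cells (42.7% called, 24% higher and 18.7% lower). In ganglion-like cells 1 was higher and 2 lower than in Schwann-like cells (38.1% called, 19.3% higher and 18.8% lower). Dropping the filter shifted the log2 fold changes of the genes in both fits by a median of -0.77, -0.73, -0.43, 0.01, 0.35 and 0.14 in these 6 comparisons, in the same order. For genes that the filter left out, the levels and an exact paired permutation test over mice (two-sided, on the difference in CPM, n = 10) are therefore given in place of those fold changes. The smallest p of this test is 0.00195, and p-values are not adjusted for the 60 combinations of gene and class pair.

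**Figure D2:**
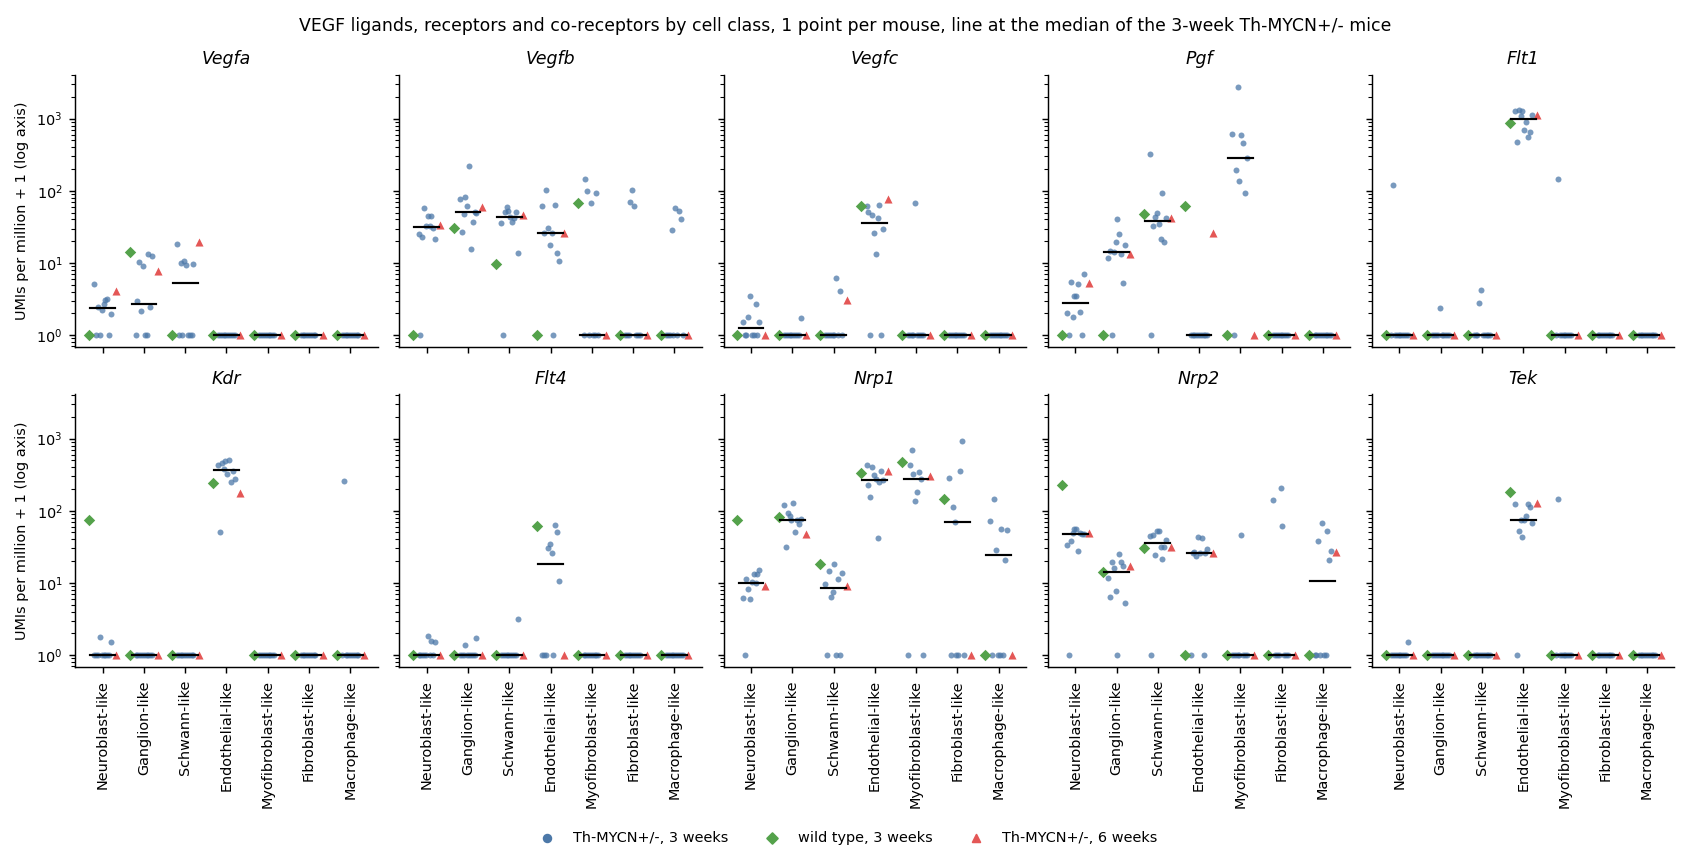
Level of each of the 10 genes (CPM + 1, log axis) in 7 cell classes; blue points are the young transgenic mice with their median as a line, the green diamond is the WT mouse and the red triangle the 6-week-old Th-MYCN+/- mouse. Flt1, Kdr and Tek stood out in endothelial-like cells, Pgf in myofibroblast-like cells, and Vegfa was at most 18.4 CPM in any class and mouse.

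Among the ligands, Vegfa, the main inducer of vessel growth, was sparse. Its UMIs numbered 74 in all cells of the 10 young transgenic mice, and the level over all cells ranged from 0.593 CPM through a median of 2.77 CPM to 5.70 CPM. Of these UMIs, 33 were in ganglion-like, 19 in neuroblast-like, 12 in Schwann-like and 10 in unnamed cells. Endothelial-like cells had 0 of 653349 UMIs, which allows up to 4.59 CPM, and macrophage-like, myofibroblast-like and fibroblast-like cells had none either. The mean level was 4.54 CPM ± 5.05 (SD, n = 10) in ganglion-like, 5.31 CPM ± 6.15 in Schwann-like and 1.37 CPM ± 1.26 in neuroblast-like cells, and the ranges of the 3 classes overlapped. The difference between neuroblast-like and ganglion-like cells had an exact p of 0.0938, that between neuroblast-like and Schwann-like cells an exact p of 0.0625, and that between ganglion-like and Schwann-like cells an exact p of 0.766 (n = 10 mice each). By edgeR without the filter on low counts Vegfa was called lower in neuroblast-like cells than in ganglion-like cells (log2 fold change -1.98 ± 0.58, SE; adjusted p = 0.00202) and than in Schwann-like cells (-1.90 ± 0.73; adjusted p = 0.0232), so these calls depend on the test. The Vegfa gene lies on the minus strand of chromosome 17 (GRCm38, chr17:46016993-46032369).

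Vegfb, a ligand of FLT1, was the most evenly spread ligand. In neuroblast-like cells it ranged from 0 through a median of 30.2 to 57.6 CPM, and in Schwann-like cells from 0 through 41.8 to 59.0 CPM. In ganglion-like cells it ranged from 14.7 through 49.0 to 217 CPM, and in endothelial-like cells from 0 through 25.0 to 103 CPM. All 4 ranges overlapped. The level in neuroblast-like cells (30.3 CPM ± 15.6, SD, n = 10) was lower than in ganglion-like cells (65.5 CPM ± 57.0) in 8 of 10 mice, with a log2 fold change of -0.80 ± 0.24 (SE; edgeR, adjusted p = 0.00552), and the exact p was 0.00977. Against Schwann-like cells (37.7 CPM ± 18.3) the log2 fold change was -0.60 ± 0.21 (SE; edgeR, adjusted p = 0.0186), but this call was lost with DESeq2 (-0.41, adjusted p = 0.123), without the filter (-0.25, adjusted p = 0.488), under a stricter cell filter (-0.48, adjusted p = 0.0741) and in the exact test (p = 0.0859). The highest ganglion-like value, in replicate 6, rested on 22 UMIs in 26 cells, 9 of them in 1 cell.

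Vegfc, the ligand of FLT4 that drives growth of lymphatic vessels, was found mainly in endothelial-like cells. There it ranged from 0 through a median of 35.1 to 62.1 CPM, with a mean of 32.6 CPM ± 23.2 (SD, n = 10), and 8 of 10 mice had a UMI. In neuroblast-like cells the mean was 0.591 CPM ± 0.845, in Schwann-like cells 0.819 CPM ± 1.79 and in ganglion-like cells 0.0719 CPM ± 0.227, and endothelial-like cells were higher in 8 of 10 mice in each comparison (exact p = 0.00781 for each). Summed over mice, the ratio of endothelial-like to neuroblast-like cells was 40.4 (95% interval 16.7 to 107, counting error only). The class ranges overlapped only at and near 0.

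Pgf, the placental growth factor that binds FLT1 and neuropilins, came from cells other than endothelial cells in these mice. Endothelial-like cells of the 10 young transgenic mice had 0 Pgf UMIs of 653349. Schwann-like cells ranged from 0 through a median of 37.2 to 322 CPM and ganglion-like cells from 0 through 13.3 to 39.5 CPM, while neuroblast-like cells ranged from 0 through 1.78 to 5.93 CPM. The leading genes of myofibroblast-like cells included Acta2, Myh11 and Tagln, from the list of smooth muscle genes. Des and Kcnj8, from the list of pericyte genes, were also among them. The name of this class therefore does not set it apart from smooth muscle cells and pericytes of the vessel wall, and which of these the cells are was not tested. Myofibroblast-like cells ranged from 0 through 282 to 2753 CPM in 9 mice. The 4 ranges overlapped, and Schwann-like cells were higher than neuroblast-like cells with an exact p of 0.00391, higher than ganglion-like cells with 0.0215, and higher than endothelial-like cells with 0.00391 (n = 10 mice). Ganglion-like cells were higher than neuroblast-like cells with an exact p of 0.00586.

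A few cells set the upper end of Pgf. One myofibroblast-like cell of replicate 5 held 52 Pgf UMIs among its 928 UMIs, where the next cell had 3, and without it the value of that mouse went from 2753 to 341 CPM. The mean of the myofibroblast-like cells went from 569 CPM ± 847 to 301 CPM ± 219 (SD, n = 9); this class still had the highest mean of the named classes. One Schwann-like cell of replicate 1 held 20 Pgf UMIs among 971, and without it that mouse went from 322 to 149 CPM and the Schwann-like mean from 65.1 CPM ± 93.4 to 47.8 CPM ± 43.1 (SD, n = 10). Against Schwann-like cells, the ratio of myofibroblast-like cells over the summed mice was 15.6 (95% interval 11.7 to 20.7) with both cells kept and 7.28 (4.77 to 10.9) without them.

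Flt1 was the receptor with the most UMIs. In endothelial-like cells it ranged from 480 through a median of 1002 to 1316 CPM (mean 938 CPM ± 321, SD, n = 10), and all 10 mice had a UMI. The same mice had 1 Flt1 UMI in ganglion-like, 2 in Schwann-like and 2 in neuroblast-like cells. The neuroblast-like UMIs both lay in 1 mouse, replicate 2, where few UMIs of the class make them a level of 120 CPM. No mouse of any other class reached the lowest endothelial-like value. The log2 fold change was 11.58 ± 0.54 against neuroblast-like cells (SE; edgeR, adjusted p = 3.37e-12), 11.37 ± 0.32 against ganglion-like cells (adjusted p = 1.43e-17) and 9.42 ± 0.31 against Schwann-like cells (adjusted p = 4.16e-17), each higher in 10 of 10 mice, and the exact p was 0.00195 for each. Those fitted values depend on how counts near 0 are handled, and the ratio of summed counts against neuroblast-like cells was 5797 (95% interval 1598 to 47969).

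Kdr, the main signalling receptor for VEGFA, had the same distribution at a lower level. Its endothelial-like values ranged from 50.5 through a median of 366 to 497 CPM (mean 351 CPM ± 137, SD, n = 10), and the lowest was that of replicate 2. Ganglion-like and Schwann-like cells had 0 UMIs in all 10 mice, so the endothelial-like level was at least 985-fold and at least 291-fold higher, with a floor of 3 UMIs over the summed mice. Neuroblast-like cells had 2 UMIs, in 2 mice. The endothelial-like range did not overlap with that of these 3 classes (exact p = 0.00195 for each, n = 10 mice).

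Flt4, the receptor for VEGFC, was near the limit of detection. In endothelial-like cells it ranged from 0 through a median of 17.1 to 62.1 CPM (mean 21.0 CPM ± 22.8, SD, n = 10), and 6 of 10 mice had a UMI. The mean was 0.188 CPM ± 0.315 in neuroblast-like, 0.110 CPM ± 0.245 in ganglion-like and 0.213 CPM ± 0.674 in Schwann-like cells (exact p = 0.0312 for each comparison with endothelial-like cells). Of the lymphatic markers, Lyve1 and Reln had 0 UMIs in endothelial-like cells of these mice, Prox1 had 1, Pdpn 4, Ccl21a 5 and Mmrn1 12. The capillary markers had from 122 (Cd300lg) to 968 UMIs (Plvap, which also served to name the endothelial-like class). Arterial markers had from 1 (Gja5) to 106 (Sema3g) and venous markers from 15 (Selp) to 166 (Vwf).

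Tek was found almost entirely in endothelial-like cells, with 1 of its 47 UMIs in neuroblast-like and 1 in myofibroblast-like cells. The endothelial-like values ranged from 0 through a median of 74.2 to 124 CPM (mean 75.1 CPM ± 38.7, SD, n = 10), and replicate 2 was the 1 mouse without a UMI. Ganglion-like and Schwann-like cells had none, which made the endothelial-like level at least 188-fold and at least 55.5-fold higher. The exact p was 0.00391 in each of the 3 comparisons, with 9 of 10 mice higher.

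Because Flt1, Kdr and Tek shared this distribution, the 250 bases before their annotated starts are shown. They were taken from the RefSeq annotation of GRCm38.p6, read 5′ to 3′ on the strand of the gene. Whether these bases regulate the genes was not tested. Flt1 and Kdr are on the minus strand, at chr5:147726012-147726261 and chr5:75978456-75978705, and Tek is on the plus strand, at chr4:94739039-94739288. Capitals mark GGAAGT, a hexamer of the kind bound by ETS factors, on either strand.
Flt1: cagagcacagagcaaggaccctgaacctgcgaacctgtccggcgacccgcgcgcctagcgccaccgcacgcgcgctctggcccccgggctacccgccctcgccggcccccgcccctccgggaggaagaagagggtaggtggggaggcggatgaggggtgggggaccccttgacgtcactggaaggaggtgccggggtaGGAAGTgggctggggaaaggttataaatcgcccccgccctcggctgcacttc
Kdr: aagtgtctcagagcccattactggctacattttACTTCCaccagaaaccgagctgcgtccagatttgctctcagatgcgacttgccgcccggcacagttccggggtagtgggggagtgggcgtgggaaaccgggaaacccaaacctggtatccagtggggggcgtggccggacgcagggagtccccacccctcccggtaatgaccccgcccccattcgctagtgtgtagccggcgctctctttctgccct
Tek: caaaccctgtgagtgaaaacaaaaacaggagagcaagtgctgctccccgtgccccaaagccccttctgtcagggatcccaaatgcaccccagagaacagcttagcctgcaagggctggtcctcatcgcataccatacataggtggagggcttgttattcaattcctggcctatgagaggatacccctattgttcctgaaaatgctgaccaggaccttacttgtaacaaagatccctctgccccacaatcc

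Flt1 and Kdr each held 1 such hexamer and Tek none. The hexamer, chosen after these promoters had been read, is present in 6475 of 32817 promoter windows of that length (19.7%), and it was in 2 of the 12 windows of the 10 genes, so its share was near that of all windows. The E-box CACGTG, the site of MYC and MYCN dimers, was found in none of the 12 windows and in 6.02% of all windows. The hypoxia response core ACGTG, whose letters are also part of the E-box, was found in 1 and in 16.6% of all windows. That 1 window precedes an alternative start of Vegfa and lies inside the gene, not before its first base. All 3 motifs were searched on both strands.

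**Figure D3:**
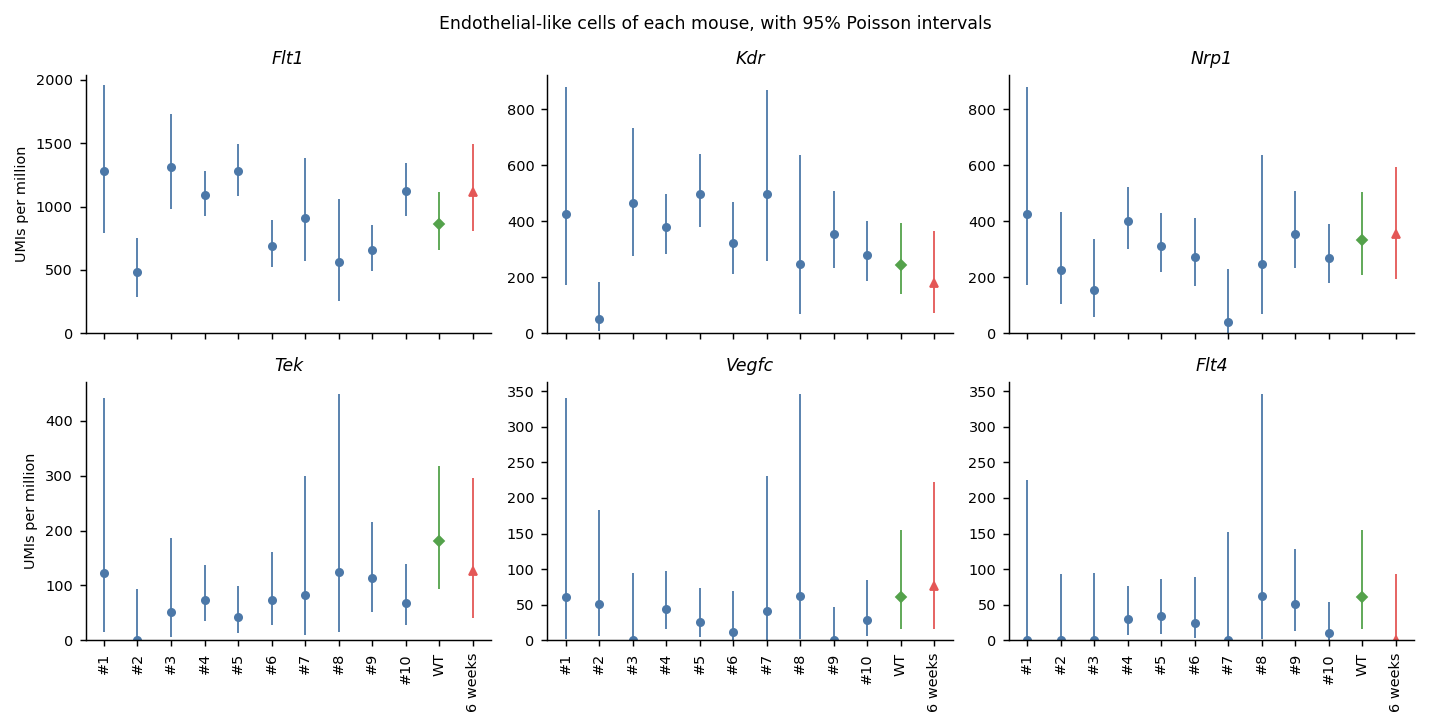
Level in endothelial-like cells (CPM, linear axis from 0) in each of the 10 young transgenic mice (blue, numbered by replicate), the WT mouse (green diamond) and the 6-week-old Th-MYCN+/- mouse (red triangle), with 95% Poisson intervals. The Kdr value of replicate 2 (50.5 CPM) lay below those of the other 9 Th-MYCN+/- mice, and the intervals of Tek, Vegfc and Flt4 were wide in most mice.

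Nrp1 was shared between vessels and neurons. In endothelial-like cells it ranged from 41.4 through a median of 270 to 427 CPM (mean 270 CPM ± 115, SD, n = 10), and in ganglion-like cells from 30.1 through 74.3 to 128 CPM (mean 78.7 CPM ± 29.3). Neuroblast-like cells ranged from 0 through 9.01 to 14.3 CPM and Schwann-like cells from 0 through 7.56 to 17.0 CPM. Endothelial-like and ganglion-like ranges overlapped through the endothelial-like value of replicate 7 alone, and each of them lay above the ranges of neuroblast-like and Schwann-like cells. The log2 fold change was 2.19 ± 0.23 for endothelial-like against ganglion-like cells (SE; edgeR, adjusted p = 1.52e-08; higher in 9 of 10 mice) and, with neuroblast-like cells set against ganglion-like ones, -3.00 ± 0.24 (adjusted p = 4.43e-10; lower in 10 of 10). Neuroblast-like and Schwann-like cells did not differ beyond their spread (exact p = 0.652, n = 10). Among the smaller classes, myofibroblast-like cells had 265 CPM ± 218 (SD, n = 9) and fibroblast-like cells 195 CPM ± 306 (n = 9), the latter from 11 UMIs.

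Nrp2, unlike Nrp1, was higher in neuroblast-like than in ganglion-like cells. It ranged from 0 through a median of 46.4 to 55.1 CPM in neuroblast-like cells (mean 39.3 CPM ± 16.5, SD, n = 10) and from 0 through 13.02 to 24.5 CPM in ganglion-like cells (mean 11.9 CPM ± 7.74). The value of 0 was that of replicate 2, whose 16679 UMIs in this class allow up to 179.9 CPM, and the other 9 neuroblast-like values, from 26.9 CPM up, all lay above the highest ganglion-like value. The log2 fold change was 2.04 ± 0.31 (SE; edgeR, adjusted p = 4.74e-06; higher in 9 of 10 mice). Schwann-like cells (33.5 CPM ± 16.0) did not differ from neuroblast-like cells beyond their spread (log2 fold change -0.02 ± 0.20, SE; edgeR, adjusted p = 0.938), and this difference took either sign with the processing. Endothelial-like cells had 23.5 CPM ± 14.2, with an exact p of 0.0508 against neuroblast-like and 0.0586 against ganglion-like cells (n = 10). Against ganglion-like cells, Nrp1 was thus lower and Nrp2 higher in neuroblast-like cells, in 10 and 9 of 10 mice.

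Within the classes, the neuropilins were also set side by side by cluster. The neuroblast-like cells came from 2 clusters, with a mean of 35.7 CPM ± 18.7 of Nrp2 (SD, n = 10 young transgenic mice) in the cluster of 1374 cells and 42.8 CPM ± 18.3 in that of 1367 cells. Nrp1 was 5.86 CPM ± 3.54 in the first and 11.5 CPM ± 6.31 in the second. The ganglion-like cells came from 3 clusters, and Nrp1 was 65.5 CPM ± 52.5 in that of 1366 cells, which had enough cells in 5 mice only, 136 CPM ± 117 in that of 988 cells (n = 10) and 66.0 CPM ± 12.1 in that of 403 cells (n = 9), which had a far higher median depth. The clusters came from the same mice, and differences between their means were not tested. Most Vegfa UMIs of ganglion-like cells, 37 over all 12 mice, were in that last cluster. Its median was 14291 UMIs per cell, against 1294 and 524.5 in the other ganglion-like clusters. By level Vegfa was 5.75 CPM ± 6.45 there (SD, n = 9), against 0.330 CPM ± 0.738 (n = 5) and 2.71 CPM ± 4.33 (n = 10), with overlapping spreads.

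Per cell, a UMI of a receptor was seen in only a part of the endothelial-like cells. Of 530 such cells, whose median depth was 1062 UMIs, 56.0% had a Flt1 UMI, 31.1% a Kdr UMI, 28.7% an Nrp1 UMI and 10.4% a Tek UMI. With every cell thinned to 500 UMIs, which left 373 cells, the shares were 35.1% (95% interval 30.3 to 40.2, exact), 14.5% (11.1 to 18.5), 14.2% (10.8 to 18.2) and 4.02% (2.27 to 6.55). In neuroblast-like cells, which were deeper with a median of 4481 UMIs and should lack Flt1 and Kdr, the unthinned shares were 0.0730% and 0.109%. Both thinned shares were 0 of 2642 cells, which allows up to 0.114% with a floor of 3 cells and 0.140% by the exact 95% interval. In endothelial-like cells of the young transgenic mice, 117 of 432 (27.1%) had both Flt1 and Kdr, 156 had neither, and the median depth was 2391 UMIs in the former against 399.5 UMIs in the latter. Droplets too small to be called cells held 16.3 CPM of Flt1 and 5.59 CPM of Kdr over the 10 mice, below the endothelial-like levels. They held 41.1 CPM of Nrp1, above the levels in neuroblast-like and Schwann-like cells. By mouse this Nrp1 value ranged from 9.36 to 156 CPM, and its upper end lay above the ganglion-like range given above. The droplets also held 25.9 CPM of Vegfb, close to the endothelial-like median of 25.0 CPM. They held 16.4 CPM of Pgf and 17.9 CPM of Nrp2, above the ganglion-like medians of 13.3 and 13.02 CPM. The part of this free RNA in the class levels was not tested.

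The endothelial-like cells were split once more, into 5 sub-clusters that were left without a name. Between the 3 with over 30 cells, Flt1 was 1071 CPM (984 to 1163) in 229 cells, 882 CPM (743 to 1039) in 249 shallow cells with a median of 470 UMIs, and 328 CPM (179 to 551) in 39 cells. Flt4 was 21.0 CPM (10.5 to 37.6), 18.6 CPM (3.84 to 54.4) and 117 CPM (38.1 to 274) in the same order, the last from 5 UMIs, and its first and last intervals did not overlap. The 39 cells came from 8 mice, 38.5% of them from 1 mouse. Their leading genes were Ahsg, Fabp4, Timp4, Fgl2 and Fxyd6, followed by Mmrn1 and Ackr4. They held 31 UMIs of the 6 lymphatic markers (727 CPM), against 1 and 2 UMIs in the other sub-clusters shown. Capillary markers were higher still in the 39 cells, at 4267 CPM, against 3897 CPM in the 229 and 3545 CPM in the 249 cells. Venous markers were at 844 CPM, against 496 and 584 CPM in the same order. Kdr was 372 CPM (322 to 428) in the 229 cells, 229.7 CPM (162 to 317) in the 249 cells and 328 CPM (179 to 551) in the 39 cells, and only the intervals of the 229 and the 249 cells did not overlap. Since the same cells made the clusters, these values are a description.

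**Figure D4:**
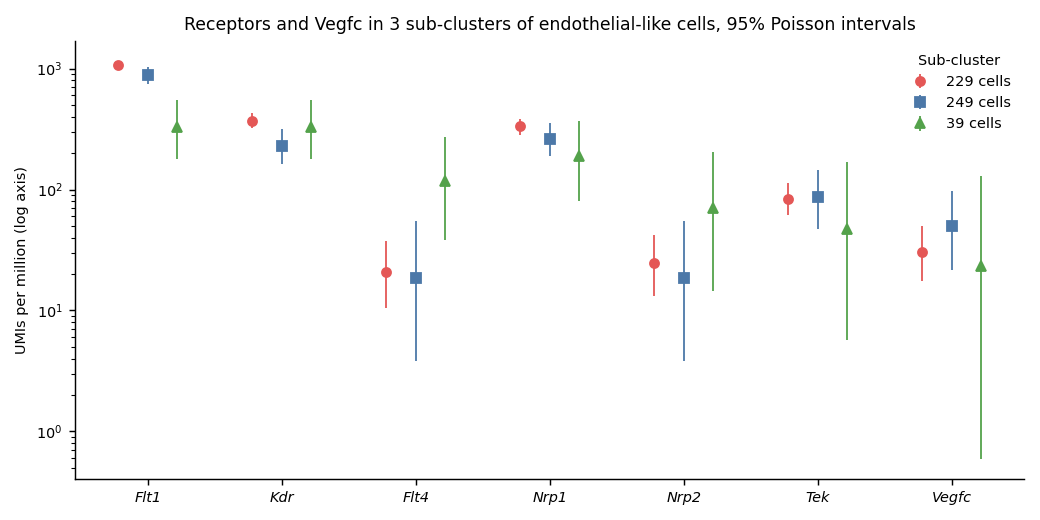
Level (CPM, log axis) of 7 genes in the 3 larger sub-clusters of endothelial-like cells, over all 12 mice, with 95% Poisson intervals. The sub-cluster of 39 cells had less Flt1 (328 CPM) than the other 2. Its Flt4 value (117 CPM, from 5 UMIs) had an interval above that of the 229 cells but overlapping that of the 249 cells.

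The conditions were then set side by side for each gene, class by class. Over the 4 larger classes the single WT or 6-week-old mouse lay outside the range of the 10 young transgenic mice in 11 of 80 combinations of gene, class and mouse. All 11 lay above it, and 3 of them were WT cells placed among neuroblast-like cells, whose markers stood apart. In 70 of the 80 there was a UMI, and over all genes 12.1% of such combinations lay outside, 10962 above and 4409 below the range. No value could lie below the range where the lowest young transgenic mouse had 0. In endothelial-like cells the receptors lay mostly within that range. Flt1 was 863 CPM in the WT (654 to 1118) and 1114 CPM in the 6-week-old mouse (809 to 1496), and Nrp1 was 333 CPM (209 to 504) and 354 CPM (194 to 595). Kdr was 242 CPM (138 to 393) and 177 CPM (71.3 to 365), both below the Th-MYCN+/- median and above its lowest value.

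Tek was above all 10 young transgenic mice in both other mice, with 182 CPM in the WT (93.9 to 317) and 127 CPM in the 6-week-old mouse (41.1 to 295). The first interval included 3 and the second 9 of the 10 values in young transgenic mice. Pgf had 4 UMIs in WT endothelial-like cells (60.6 CPM, 16.5 to 155) and 1 in the 6-week-old mouse, against 0 in the 10 mice. Vegfc was 76.0 CPM (15.7 to 222) in the 6-week-old mouse, from 3 UMIs, and 60.6 CPM (16.5 to 155) in the WT. In ganglion-like cells Nrp1 was 81.8 CPM in the WT (52.9 to 121) and 46.5 CPM in the 6-week-old mouse (36.1 to 58.8), both within the Th-MYCN+/- range.

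In the neuroblast-like cells of the 6-week-old mouse all 10 genes lay within the range at 3 weeks. Nrp2 was 48.1 CPM (38.1 to 59.98), Vegfb 32.3 CPM (24.2 to 42.2), Nrp1 7.92 CPM (4.22 to 13.5) and Vegfa 3.05 CPM (0.989 to 7.11). In Schwann-like cells of that mouse Vegfa was 18.4 CPM (8.40 to 34.9), from 9 UMIs, 4 of them in 1 cell, against at most 17.4 CPM in the 3-week-old mice. Over all cells Vegfa was 5.96 CPM (3.82 to 8.86) at 6 weeks and 7.12 CPM (2.31 to 16.6) in the WT, from 24 and 5 UMIs, both above the highest of the 10 mice (5.70 CPM) with intervals that included it.

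Over all cells Flt1 was 81.2 CPM (61.5 to 105) in the WT mouse, above the 3.74 to 67.8 CPM of the young transgenic mice. The share of endothelial-like cells among all cells was 11.2% in the WT (8.79% to 13.9%), 4.24% ± 2.51 (SD, n = 10, 0.938% to 9.61%) in the young transgenic and 3.07% (2.06% to 4.38%) in the 6-week-old mouse. Neuroblast-like cells, which lower the share of every other class, were 5.83%, 25.5% ± 13.2 (SD) and 23.9% of cells in the same order. The WT mouse had 69 endothelial-like and 36 neuroblast-like cells of 618, and replicate 6 of the young transgenic mice had 59 and 166 of 614. Among cells that are not neuroblast-like, the endothelial-like share was thus higher in replicate 6 than in the WT mouse. A difference in this share between conditions was not tested. Within endothelial-like cells the WT Flt1 level lay inside the range of the young transgenic mice, as given above. Fewer cells of a type and less RNA per cell cannot be told apart in values over all cells.

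Whether mice with more Vegfa had a larger share of endothelial-like cells was asked across the 10 young transgenic mice, with the share taken over cells that are not neuroblast-like. For Vegfa in neuroblast-like cells Pearson's r was -0.35 (permutation p = 0.304, adjusted over 3 relations 0.675) and Spearman's rho -0.57 (permutation p = 0.0918, adjusted 0.275), and r without the 2 farthest mice was -0.14. For Vegfa in Schwann-like cells r was 0.04 (permutation p = 0.917, adjusted 0.917) and rho 0.02 (permutation p = 0.971, adjusted 0.971), with r = 0.43 without 2 mice. For Vegfa in all cells r was -0.29 (permutation p = 0.450, adjusted 0.675) and rho -0.27 (permutation p = 0.447, adjusted 0.671), with r = -0.31 without 2 mice. None of these passed. With 2 unnamed clusters counted as neuroblast-like, a setting chosen after the data were seen, rho for neuroblast-like cells was -0.76 (permutation p = 0.0152, adjusted 0.0455), which passed, while r was -0.33 (permutation p = 0.261, adjusted 0.640); with all genes used in clustering rho was -0.71 (permutation p = 0.0289, adjusted 0.0866). Only 19, 12 and 74 Vegfa UMIs lay behind the first 3 relations.

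Other genes of the pathway were taken from fixed lists and compared between endothelial-like and neuroblast-like cells, first with the filter on low counts, where 31.1% of all genes tested were higher in endothelial-like cells and 33.6% lower. Of 5 angiopoietin and Tie genes 2 were tested and both were higher. Ptprb, the phosphatase that restrains TEK, was 343 CPM ± 147 against 6.32 CPM ± 18.9 (log2 fold change 9.70 ± 0.51, SE; edgeR, adjusted p = 1.52e-11), and Tie1, the partner of TEK, was 240 CPM ± 116 against 0.509 CPM ± 0.836 (8.93 ± 0.46; edgeR, adjusted p = 1.22e-11; both higher in 10 of 10 mice). Among the 4 larger classes, Angpt2, an angiopoietin that modulates TEK, had its highest level in Schwann-like cells, 175 CPM ± 60.2. The level was 14.1 CPM ± 25.4 in endothelial-like, 4.25 CPM ± 4.98 in ganglion-like and 1.72 CPM ± 1.48 in neuroblast-like cells. It was lower than in Schwann-like cells in 10 of 10 mice in each class, with log2 fold changes of -3.36 ± 0.45 (SE; edgeR, adjusted p = 8.99e-07), -5.56 ± 0.34 (adjusted p = 2.95e-12) and -6.80 ± 0.29 (adjusted p = 5.35e-13). In the same 4 classes, Angpt1 had 5 neuroblast-like UMIs and 1 ganglion-like UMI, and Angpt4 had 1 neuroblast-like UMI. Neither had a UMI in endothelial-like or Schwann-like cells, and the smaller classes are not given here. The remaining VEGF ligand with a row, Vegfd, had 3 UMIs in endothelial-like, 7 in neuroblast-like and 22 in ganglion-like cells.

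Of 18 VEGF signalling genes 7 were tested, of which 5 were higher in endothelial-like cells and none lower, led by Cdh5, the cadherin of endothelial junctions (10.82 ± 0.49, SE; edgeR, adjusted p = 2.12e-12), and Hspb1, a small heat shock protein (7.88 ± 0.53; adjusted p = 3.98e-10). Of 11 endothelial transcription factors 3 were tested. Elk3 (9.03 ± 0.40; edgeR, adjusted p = 1.92e-12) and Lmo2 (8.28 ± 0.31; adjusted p = 1.75e-13) were higher and Gata2, which sympathetic neuroblasts also express, was lower (-0.79 ± 0.32; adjusted p = 0.0414). Of 15 hypoxia targets 5 were tested, with 3 higher and 1 lower: Epas1, the endothelial hypoxia-inducible factor (9.65 ± 0.36; edgeR, adjusted p = 1.72e-13), and the glucose transporter Slc2a1 (6.28 ± 0.55; adjusted p = 1.52e-08) led those that were higher, and the glycolytic enzyme Pgk1 was lower (-1.16 ± 0.22; adjusted p = 0.000194). Genes that are high in a single class passed the filter through that class, so these counts describe the genes tested and not the lists. Without the filter, 8 of 17 signalling genes tested were higher and 4 lower, 10 of 11 transcription factors higher and 1 lower, and 4 of 14 hypoxia targets higher and 2 lower, where 13.6% of all genes tested were higher and 22.7% lower.

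The 12 tip cell and Notch genes and the 12 semaphorin and plexin genes were all left out by the filter in this comparison. Without it, 10 of the 12 tip cell and Notch genes were higher in endothelial-like cells and none lower, and of 11 semaphorin and plexin genes tested 4 were higher and 2 lower (13.6% and 22.7% of all genes). Aplnr, the apelin receptor, was 190 CPM ± 119 against 0 UMIs in neuroblast-like cells, and Notch1 was 138 CPM ± 110 against 7.05 CPM ± 18.6. The neuropilin partners differed among themselves: Plxnd1 was 158 CPM ± 101.2 in endothelial-like against 6.64 CPM ± 18.7 in neuroblast-like cells, and Plxna3 had 0 against 202 UMIs (15.1 CPM ± 6.11). Among the hypoxia targets left out by the filter, Egln3, an oxygen sensor that limits hypoxia-inducible factors, had 2 UMIs in endothelial-like and 4656 in neuroblast-like cells (361 CPM ± 123, lower in endothelial-like cells in 10 of 10 mice).

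Genes whose level was most like that of Vegfa, Vegfb, Kdr, Nrp1 and Nrp2 were found over 40 sums, 10 mice by 4 classes, among 6574 genes. The sums of 1 mouse share a library, and differences between classes dominate, so the correlations are a description. Kdr was followed most closely by C130074G19Rik (Pearson's r = 0.99), Unc45b (0.99), Slc39a8 (0.99), Mmrn2 (0.99) and Ushbp1 (0.99), and Nrp1 by Tinagl1 (0.92), Parvb (0.91), Aqp1 (0.90), Tshz2 (0.88) and Fxyd5 (0.87). For Nrp2 the closest were Bod1l (0.78), Irf2bp1 (0.78), Htra2 (0.76), Rbm5 (0.73) and Nrf1 (0.73), and for Vegfb Cdc34 (0.76), Hagh (0.72), BC004004 (0.70), Hddc3 (0.69) and Wbp2 (0.68). Vegfa, with few UMIs, had the loosest likeness, with Scamp5 (0.61), Spire2 (0.58), Sc5d (0.57), Arhgef17 (0.56) and Ank (0.55).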

How the data were processed

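The 10 genes and all gene lists were chosen with earlier results of these data known. The authors aligned 10x Genomics Chromium 3' reads with Cell Ranger (3.0.2 per the file headers) to an mm10 reference that included the human MYCN transgene and deposited unfiltered count matrices, that is raw UMI counts per gene and barcode, 1 per mouse. From these, cells were called with a re-implementation of EmptyDrops (droplets of at most 100 UMIs as background, 10000 draws, FDR 0.01) and kept with at least 200 genes, at most 10% mitochondrial and at most 60% ribosomal UMIs. Clusters were made with Seurat 5.3.0 and sctransform 0.4.2 (2000 variable genes, 30 components, resolution 0.5), leaving out 88 genes that include the 10 described, and named from fixed markers. Doublets were kept, since Scrublet marked only 50 of 12064 cells (0.414%), a share at which it cannot be taken to have worked, and removing the highest 5% of its scores was an alternative.

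UMI counts were summed by mouse and class where a class had at least 5 cells, and tested with edgeR 4.0.16 (filterByExpr, TMM, glmQLFit and glmQLFTest with the mouse as a block, FDR 0.05) in R 4.3.3; the tests were tried on simulated data. Classes compared came from the same mouse, which pairs them; deviations from the class means correlated between -0.02 and 0.33 within mice. Intervals are exact Poisson for levels, exact binomial for shares and conditional binomial for ratios, at 95%, and cover counting error only. A count of 0 allows 3 UMIs. Alternatives were DESeq2 1.42.0, leaving out replicate 2, no block, sums of 10 cells or more, no filter on low counts, stricter cell filters, other clustering and other uses of doublets. Chosen after seeing the data were the exact paired permutation test, the unfiltered fit with the scaling of the filtered genes, counting 2 unnamed clusters as neuroblast-like, Pgf values without the cells richest in it, the sub-clustering of endothelial-like cells (1000 genes, 15 components, resolution 0.5, 1 run), the hexamer GGAAGT, and a minimum of 50 UMIs for the test of single values. All 10 genes are named. From the other lists all angiopoietin and VEGF ligand genes are named. Otherwise the 2 largest log2 fold changes called in each direction between endothelial-like and neuroblast-like cells are named. Notch1, Aplnr, Plxnd1, Plxna3, Egln3 and the lymphatic, capillary, arterial and venous markers were named after their values were seen. The same holds for the smooth muscle and pericyte genes named for myofibroblast-like cells. Likeness used log2(CPM + 10) and genes with at least 20 CPM on average. Promoter windows and gene starts are RefSeq's for GRCm38.p6, and gene positions are from GENCODE for GRCm38.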

Additional observations from a re-analysis of the deposited data

Results flagged for a closer look

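In 14 groups of young transgenic mice (Th-MYCN+/-, 3 weeks) with at least 50 UMIs of a gene in a class, the gap between the highest or lowest mouse and its nearest neighbour was compared with the range (Dixon's 95% critical value), and 4 passed it; chance gives about 5% of such groups. Nrp2 in neuroblast-like cells was 0.0 CPM in replicate 2, where the next lowest mouse had 26.9 CPM, but the 26 such cells of replicate 2 held 16679 UMIs, in which a count of 0 allows up to 179.9 CPM, so no lower level was detectable there. Vegfb in ganglion-like cells was 217 CPM in replicate 6, from 22 UMIs in 26 cells of which 9 lay in 1 cell, and the next mouse had 80.5 CPM. Pgf in Schwann-like cells was 322 CPM in replicate 1, from 37 UMIs of which 20 lay in 1 cell, and the next had 92.7 CPM. Pgf in myofibroblast-like cells was 2753 CPM in replicate 5, from 59 UMIs of which 52 lay in 1 cell, and the next had 611 CPM.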

How the results depend on the processing

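Each of the calls of Flt1 in endothelial-like cells, of Nrp1 between endothelial-like and ganglion-like and between neuroblast-like and ganglion-like cells, and of Nrp2 and Vegfb between neuroblast-like and ganglion-like cells kept its direction and its side of the threshold under the 13 alternatives fitted with a model, log2 fold changes ranging for Nrp2 from 1.90 to 2.12 and for Nrp1 against ganglion-like cells from -3.99 to -2.30. Among all alternative values for the 10 genes, 217 kept direction and side, 13 changed sign, 11 lost a call and 4 gained one, and 275 levels stayed within the spread between mice while 5 moved by more. Without the replicate block the genes called were 1390, 1264, 991, 4769, 3619 and 2116 in the 6 comparisons, in the order of the report, and no call of the 10 genes changed. Without a filter on low counts they were 6614, 6014, 3463, 7909, 7903 and 6835, and with the scaling of the filtered genes 5960, 5809, 3416, 8061, 7522 and 7130, both of which test more genes. Between endothelial-like and neuroblast-like cells 2629 of 4466 genes tested were called without replicate 2, and 2629 of 4572 under the stricter cell filter (500 genes or more, mitochondrial share up to 5%). The WT or 6-week-old mouse lay outside the 3-week-old range in 7 combinations with barcodes of at least 500 UMIs.

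Nrp2 between neuroblast-like and Schwann-like cells changed sign in 7 settings: 0.17 with DESeq2, 0.33 without the filter, 0.0635 without replicate 2, 0.34 under the stricter cell filter, 0.14 with at least 500 UMIs, 0.0610 without the highest Scrublet scores, and 5.85 CPM in the exact test. The other sign changes were for differences near 0. With the scaling of the filtered genes they were Vegfb between endothelial-like and neuroblast-like (0.0801) and Vegfa between ganglion-like and Schwann-like cells (-0.0236). As differences in CPM they were 4.21 and -0.771 for the same 2, 0.0780 for Flt4 between neuroblast-like and ganglion-like cells and 11.5 for Flt1 between neuroblast-like and Schwann-like cells, the last from 1 mouse. Nrp2 in endothelial-like against neuroblast-like cells, called without the filter, was lost without replicate 2 (-0.59), under the stricter cell filter (-0.52), with the scaling of the filtered genes (-0.35) and in the exact test (p = 0.0508). The relation of Vegfa in Schwann-like cells to the endothelial-like share turned to -0.353 under the stricter filter, -0.230 with at least 500 UMIs and -0.0121 with the share of all cells. For Vegfa in neuroblast-like cells that relation passed by rank with 2 unnamed clusters counted as neuroblast-like (rho -0.76, permutation p = 0.0152, adjusted 0.0455). Vegfa, called lower in neuroblast-like than in ganglion-like and Schwann-like cells without the filter (-1.98 and -1.90), also with the scaling of the filtered genes (-2.03 and -2.24), was not called in the exact test (p = 0.0938 and 0.0625). The cause of these changes was not tested.

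Depth limits the sparse genes most: Vegfa, Vegfc, Flt4 and Tek had 74, 32, 22 and 47 UMIs in the 3-week-old Th-MYCN+/- mice, and conditions rest on 1 mouse at each end.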
